A study of Mus musculus with 4 samples.

Results

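The genes of interleukin 2 (Il2) and interleukin 21 (Il21) lie side by side on mouse chromosome 3, and open chromatin across them was examined with peaks from ATAC-seq, a method in which a transposase inserts sequencing adapters where DNA is accessible. The locus was taken as chr3:37020713-37332636 on GRCm38 (mm10), 312 kb that reach from 100 kb beyond the lower end of Il2, across Adad1, to 100 kb beyond the upper end of Il21. Peaks of 4 libraries that had at least 1 base in this window were merged where they shared at least 1 base. This gave 44 regions of the 93679 regions that the same merging gave over the genome.

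The cells were naive CD4+ T cells from the spleen of male C57BL/6 wild-type mice 7 weeks old, sorted as CD62L high, CD44 low and CD25-. Every culture was activated for 48 h on coated anti-CD3 antibody (5 µg/ml) with anti-CD28 in solution (1 µg/ml), and held human TGF-β1 (5 ng/ml) and mouse IL-2 (10 ng/ml), the Treg-polarizing condition. The iTreg+PBS cells received no IL-4 (2 libraries) and the iTreg+IL-4 cells received 15 ng/ml of mouse IL-4 (2 libraries). The samples were pooled, so 1 library does not stand for 1 mouse, and added IL-2 was present in both conditions.

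IL-2 and IL-21 are short-range cytokines of the common gamma chain family, whose receptors signal through JAK kinases and STAT factors. Activated CD4+ T cells make IL-2, which sustains Tregs and drives T cell proliferation, and its promoter is a textbook target of NFAT in activated T cells. IL-21 is made chiefly by follicular helper and Th17 cells and acts on B cells and T cells. Both genes are transcribed from the reverse strand, so that Il21 lies upstream of Il2, with 107 kb between the start sites of the pair. Il2 covers 37120713 to 37125954 and Il21 covers 37222759 to 37232636 in the RefSeq annotation. The other protein-coding genes in the window are Adad1, a gene of spermatid development, and 4932438A13Rik on the lower side, and Cetn4, a centrin, with Bbs12, a chaperonin-like gene of the Bardet-Biedl syndrome, on the upper side.

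Sequences of both promoters and of the regions on which the comparison turns were read from GRCm38. The promoters are the 250 bases before the RefSeq start site (GRCm38.p6), on the strand of the gene, and are shown because the cytokine genes differed in the peaks there. The regions are given as the 200 bases around their centre, on the forward strand. Capitals mark matches on either strand to NFAT-type GGAAA, Runx-type TGTGGT or the STAT6-type motif, TTC and GAA with 4 bases between them.
Il2 promoter, chr3:37125955-37126204, reverse strand, the promoter of the gene with a peak in a single library: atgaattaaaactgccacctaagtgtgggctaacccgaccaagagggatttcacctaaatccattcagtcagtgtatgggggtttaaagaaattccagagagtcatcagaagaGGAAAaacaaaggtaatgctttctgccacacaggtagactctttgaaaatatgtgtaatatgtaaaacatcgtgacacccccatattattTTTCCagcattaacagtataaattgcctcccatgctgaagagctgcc
Il21 promoter, chr3:37232637-37232886, reverse strand, the promoter with a peak in every library: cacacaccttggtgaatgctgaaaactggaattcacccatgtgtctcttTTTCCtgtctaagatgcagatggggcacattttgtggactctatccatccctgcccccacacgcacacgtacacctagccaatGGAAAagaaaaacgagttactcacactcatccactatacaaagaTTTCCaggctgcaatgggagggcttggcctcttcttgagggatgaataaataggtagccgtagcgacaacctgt
Region 2.53 kb upstream of Il2, chr3:37128383-37128582, the nearest to Il2 called in all libraries: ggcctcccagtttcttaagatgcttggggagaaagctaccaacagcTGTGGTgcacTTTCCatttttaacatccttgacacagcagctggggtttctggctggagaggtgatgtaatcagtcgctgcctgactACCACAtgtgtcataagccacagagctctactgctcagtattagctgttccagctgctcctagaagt
Region 45.2 kb upstream of Il2, chr3:37171055-37171254, with the largest difference in list rank between the conditions among regions called in all libraries: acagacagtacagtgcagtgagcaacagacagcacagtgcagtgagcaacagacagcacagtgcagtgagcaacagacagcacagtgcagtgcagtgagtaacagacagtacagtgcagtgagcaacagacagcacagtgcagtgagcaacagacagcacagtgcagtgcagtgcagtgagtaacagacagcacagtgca
Region 27.1 kb upstream of Il21, chr3:37259613-37259812, one of the 4 strongest of the locus, chosen for its match to the STAT6-type motif: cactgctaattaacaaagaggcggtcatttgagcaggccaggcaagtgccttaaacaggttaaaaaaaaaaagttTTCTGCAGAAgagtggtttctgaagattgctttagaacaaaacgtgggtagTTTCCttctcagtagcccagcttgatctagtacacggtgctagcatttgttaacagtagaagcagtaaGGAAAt
Region in Adad1, 9.62 kb after its start, chr3:37073304-37073503, called only with IL-4: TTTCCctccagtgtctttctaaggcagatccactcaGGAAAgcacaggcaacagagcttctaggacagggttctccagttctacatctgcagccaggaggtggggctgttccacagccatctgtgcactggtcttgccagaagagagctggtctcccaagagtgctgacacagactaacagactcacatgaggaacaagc
Region 44.8 kb upstream of Il21, chr3:37277302-37277501, called only with IL-4: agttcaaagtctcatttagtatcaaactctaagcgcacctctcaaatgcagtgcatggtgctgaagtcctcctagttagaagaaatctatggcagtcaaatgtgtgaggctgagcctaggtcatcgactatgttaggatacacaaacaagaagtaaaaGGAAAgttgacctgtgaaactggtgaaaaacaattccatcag
Region 38.8 kb upstream of Il21, chr3:37271360-37271559, called only without IL-4: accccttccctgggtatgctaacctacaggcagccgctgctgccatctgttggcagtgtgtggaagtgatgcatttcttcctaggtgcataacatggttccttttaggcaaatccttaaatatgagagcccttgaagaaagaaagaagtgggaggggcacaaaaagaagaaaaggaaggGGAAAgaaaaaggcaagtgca

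The Il2 promoter held 2 matches to GGAAA and the Il21 promoter 3, and 55.6% of 32851 RefSeq promoters of the same length held at least 1. Neither printed promoter sequence matched AP-1 (TGANTCA), the octamer (ATGCAAAT), STAT-type TTCNNNGAA, STAT6-type, GATA-type AGATAA, Runx-type or CRE-type TGACGTCA. The merged region at the Il21 promoter extends beyond the printed bases, and the central 200 bases of that region held 1 STAT-type match. The region 2.53 kb upstream of Il2 held 1 match to GGAAA and 2 to TGTGGT. In the region 27.1 kb upstream of Il21 there were 2 matches to GGAAA and 1 to the STAT6-type motif. The repeated block visible in the region 45.2 kb upstream of Il2 has a period of 24 bases, at which 82.4% of its bases were identical, whereas the next highest of the 44 regions reached 45.0% at its own best period.

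MACS2 peaks numbered 77064 and 56645 in the iTreg+PBS lists, and 78670 and 67743 in the iTreg+IL-4 lists. Read totals are not part of the lists, so sequencing depth is unknown, and an uncalled region means only that its enrichment missed the caller's threshold. Heights and −log10 q-values are not scaled between libraries. Each peak was therefore ranked within its own list, as the percent of peaks in that list with a higher −log10 q, so that a low value is a strong peak. All 7 marker genes of CD4+ T cells had a promoter peak in every library. Of 12 marker genes of B cells, CD8+ T cells, NK cells and myeloid cells, 3 had one in every library (Pax5, Cd8b1 and Cd14), 4 in some libraries and 5 in none. A promoter peak marks accessible DNA and not expression, and the part of other cells in the results was not tested.

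The locus was densely marked by peaks. Over the 312 kb, iTreg+PBS replicates 1 and 2 had 11.2 and 8.98 peaks per 100 kb, and iTreg+IL-4 replicates 1 and 2 had 11.9 and 13.1. Over all of chromosome 3 the same libraries had 2.39, 1.82, 2.45 and 2.09 peaks per 100 kb. Merged, the locus had 14.1 regions per 100 kb, against 3.43 on the assembled chromosomes. The Th2 cytokine locus (Il4, Il13, Rad50 and Il5), which served as a locus of similar length with cytokine genes, had 14.4 per 100 kb, and the Il9 locus had 5.91.

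Peaks were distributed unevenly around the cytokine genes, as the map of peaks by library shows. The 100 kb on the Adad1 side of Il2 held 4 regions, of which none was called in more than 2 libraries. A stretch of 52.2 kb, from the intron of Adad1 to the start of Il2, held no region in any library. Between Il2 and Il21 there were 16 regions, 11 of them called in all 4 libraries, and in the 100 kb upstream of Il21 there were 21, 13 of them called in all 4. The 24 regions called in all libraries thus lay upstream of the Il2 start site, and 21 of them lay outside protein-coding genes and their promoters. In all, 35 of the 44 regions did so, 5 of these inside annotated noncoding genes, while 4 lay at promoters, 3 in introns and 2 in exons of protein-coding genes.

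**Figure D1:**
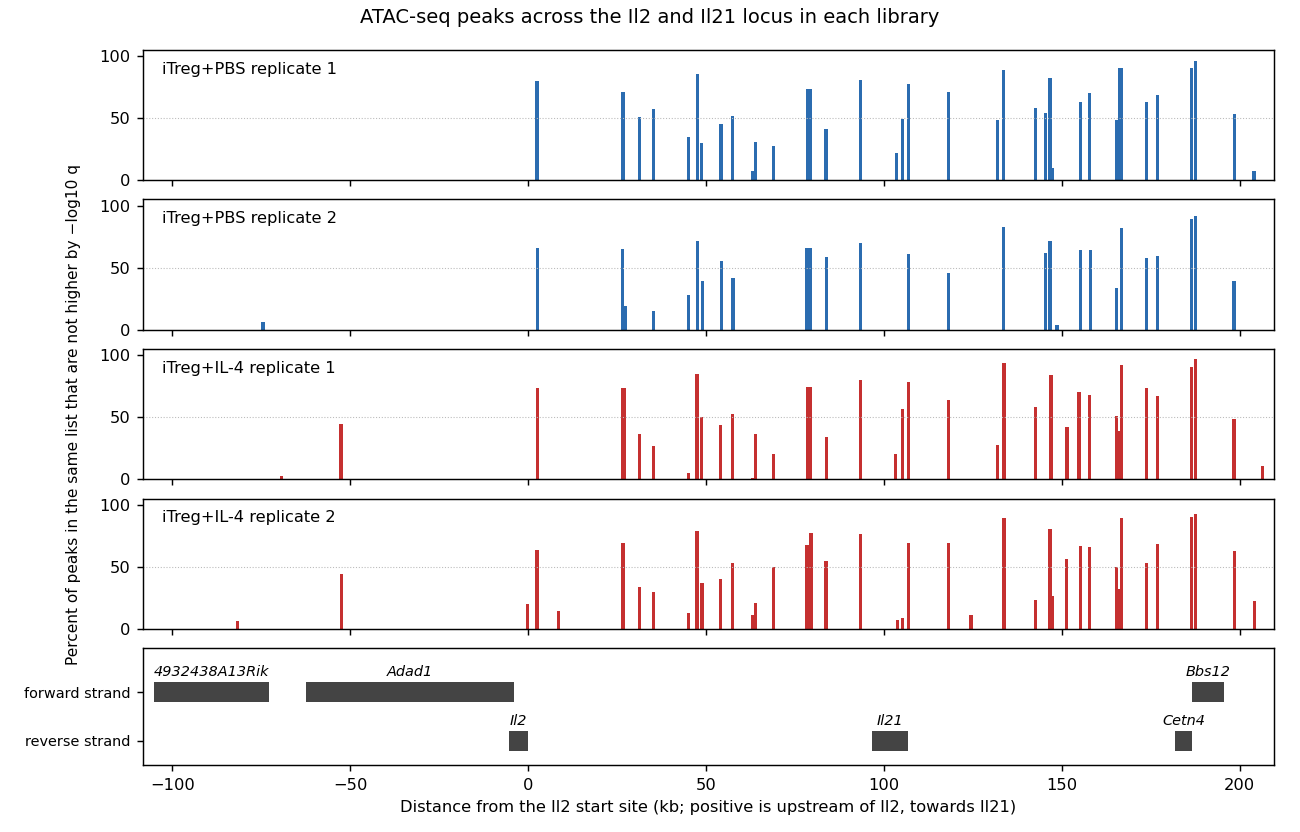
Peaks across the Il2 and Il21 locus by distance from the Il2 start site in kb (x axis), 1 panel per library, with the protein-coding genes by strand at the bottom. The height of a bar is the percent of peaks in the same list that are not higher by −log10 q (narrow peaks are widened to be visible), and bars crowd upstream of Il2 and are sparse over Adad1 in each library.

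At the Il2 promoter (1 kb before to 0.5 kb after the start site), 3 libraries had no peak, both of iTreg+PBS and the first of iTreg+IL-4. The second iTreg+IL-4 library had a peak at chr3:37125712-37125914, with a −log10 q of 7.15, a height of 23 overlapping fragments and a rank of 80.2. It lay 40 to 242 bases downstream of the start site, over 189 coding bases of exon 1, and hence outside the promoter sequence printed above. So the Il2 start was marked weakly and in 1 of 4 libraries, and ranks could not be compared there. A permutation test of presence cannot decide here, since a peak in 1 library gives the same difference in any split of 2 against 2. For the values compared below, 2 libraries against 2 cannot give a p below 0.333. Among 21911 protein-coding genes, 2.18% had a promoter peak in a single library, 34.5% in none and 59.3% in all 4.

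The closest region to Il2 called in every library lay 2281 to 2777 bases upstream of its start site (chr3:37128235-37128731). Its −log10 q was 111 and 28.7 in iTreg+PBS replicates 1 and 2, and 68.2 and 37.7 in iTreg+IL-4 replicates 1 and 2. The iTreg+PBS libraries ranked at 20.4 and 34.0 and the iTreg+IL-4 libraries at 26.7 and 36.6. The conditions overlapped, with a difference of 4.46 and a pooled SD of 8.42. The difference turned to −2.34 without iTreg+PBS replicate 1 and to −0.49 without iTreg+IL-4 replicate 2, and was 11.3 without iTreg+PBS replicate 2. Ranked only among the 47767 regions called in all libraries, both iTreg+PBS libraries stood above both iTreg+IL-4 libraries, with 32.8 and 40.1 against 43.7 and 51.5. The difference was then 11.1, and it was 7.26 to 15.0 when each library was left out in turn.

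The Il21 promoter, in contrast to that of Il2, had a peak in every library (chr3:37232623-37233181). The −log10 q was 96.9 and 23.5 in iTreg+PBS replicates 1 and 2, and 94.1 and 48.8 in iTreg+IL-4 replicates 1 and 2. The iTreg+PBS libraries ranked at 22.5 and 38.6 (30.5 ± 11.4) and the iTreg+IL-4 libraries at 21.5 and 30.9 (26.2 ± 6.70, SD, n = 2 each). The difference of −4.32 was smaller than the pooled SD of 9.36 (exact two-sided permutation test, p = 0.667). It turned to 3.75 without iTreg+PBS replicate 2 and to 0.42 without iTreg+IL-4 replicate 1. The gene body of Il21 held a pair of weaker regions, in an intron (centre at −3.10 kb from the start site, counted as negative downstream) and at the start of the antisense gene Gm12534 (−1.37 kb). Both lacked a peak in iTreg+PBS replicate 2. The intronic region ranked at 77.9, 79.8 and 93.0 in iTreg+PBS replicate 1 and the iTreg+IL-4 pair, and the one at Gm12534 at 50.3, 43.0 and 90.8. In the intronic region the peaks of the iTreg+IL-4 pair did not overlap each other and were joined by the peak of iTreg+PBS replicate 1, so their ranks belong to different places.

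Between Il2 and Il21, the strongest region by −log10 q in every library lay 47.5 kb upstream of Il2. Its ranks were 14.2 and 28.4 in iTreg+PBS replicates 1 and 2, and 15.3 and 21.3 in iTreg+IL-4 replicates 1 and 2. The conditions overlapped there. By height, the region 78.9 kb upstream of Il2 exceeded it in iTreg+PBS replicate 2 (63 against 60) and iTreg+IL-4 replicate 2 (147 against 123). The widest region of the locus, 1910 bases long, lay 78.9 kb upstream of Il2 and ranked at 26.2 and 34.1 without IL-4 and at 25.6 and 22.5 with IL-4, both iTreg+IL-4 libraries being above both others on this scale. Ranked among regions called in all libraries, its conditions overlapped. The region 57.6 kb upstream of Il2, inside the lincRNA gene Gm12532, ranked at 47.8 and 57.9 without IL-4 and at 47.3 and 46.9 with it, with the same order of the conditions in the list and the same overlap among shared regions.

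The strongest regions of the locus lay beyond Il21. The same 4 regions took the first 4 places in each library, in varying order after the first. The first place went in all of them to the region 81.0 kb upstream of Il21, within 1 kb of a Cetn4 start site, with a −log10 q of 459 and 166 without IL-4, against 452 and 263 with it. Its ranks were 3.98, 8.06, 2.90 and 7.31 in the order iTreg+PBS 1, iTreg+PBS 2, iTreg+IL-4 1 and iTreg+IL-4 2. The shared start of Cetn4 and Bbs12, 79.9 kb upstream of Il21, ranked at 9.54, 10.6, 9.10 and 9.92 in the same order, with little spread among the libraries. The other pair was intergenic, 59.9 and 27.1 kb upstream of Il21, and the former ranked at 9.19, 18.3, 7.54 and 11 in that order.

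**Figure D2:**
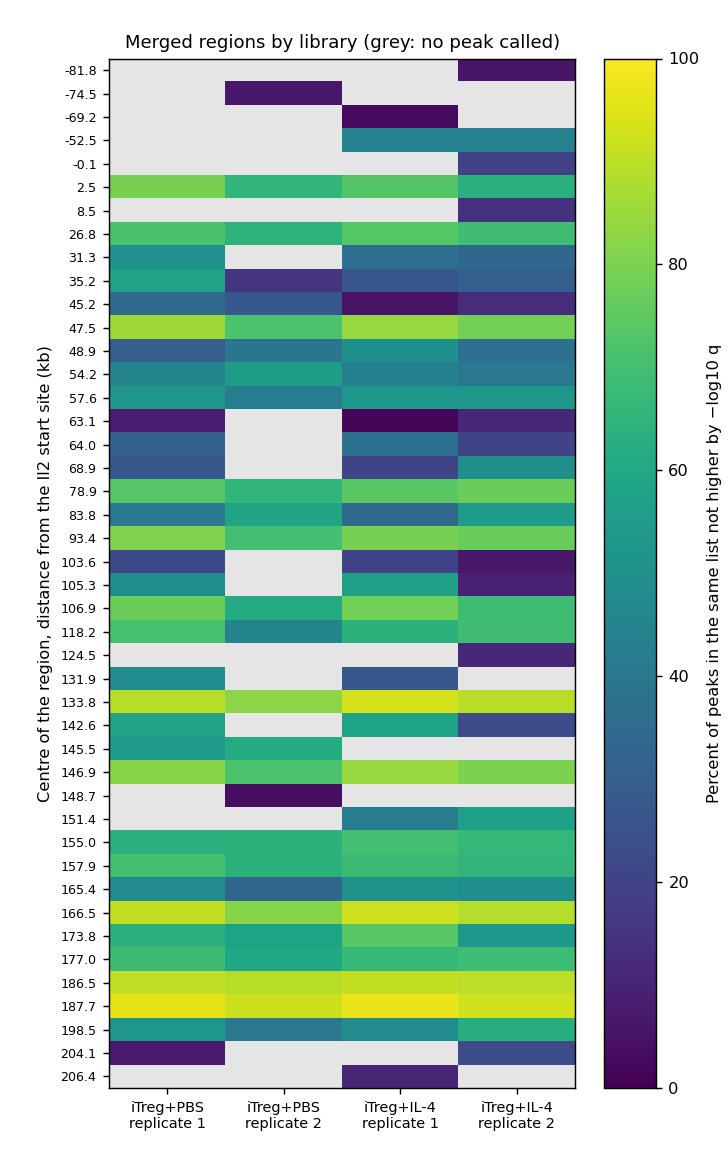
Each of the 44 merged regions (rows, by distance of the centre from the Il2 start site in kb, negative towards Adad1) in the 4 libraries (columns), coloured by the percent of peaks in the same list that are not higher by −log10 q. Grey marks a library without a peak. Grey cells gather in the top rows, which lie towards Adad1, and in iTreg+PBS replicate 2.

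Presence or absence of a peak separated the conditions in 3 of the 44 regions, described after the counts. Of the 44 regions, 24 were called in all 4 libraries, 7 in 3, 5 in 2 and 8 in 1. The share called in all 4 was 54.5%, against 51.0% of regions over the genome. All 7 regions called in 3 libraries were missing in iTreg+PBS replicate 2, the library with the shortest list (15.9% of regions, against 9.97% with that pattern over the genome). The peaks behind the 24 shared regions had a median rank of 33.2, whereas the 8 regions of a single library had a median rank of 91.4 and none ranked better than 80.2. The regions called in all libraries had a median width of 649.5 bases and the others of 295.5.

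The number of peaks in the locus was 35 and 28 in iTreg+PBS replicates 1 and 2, and 37 and 41 in iTreg+IL-4 replicates 1 and 2. The mean of the iTreg+PBS libraries was 31.5 ± 4.95 and that of the iTreg+IL-4 libraries 39 ± 2.83 (SD, n = 2 each). The groups did not overlap, but the difference of 7.5 peaks cannot pass a threshold of 0.05 with 2 libraries in each group (exact two-sided permutation test, p = 0.333). Cut to 56645 peaks each, the length of the shortest list, the lists differed by 2 peaks. The bases inside peaks were 19043 and 13081 without IL-4, against 19433 and 18572 with it, a difference of 2940.5 (exact two-sided permutation test, p = 0.667). Without iTreg+PBS replicate 2 this difference was −40.5 bases.

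**Figure D3:**
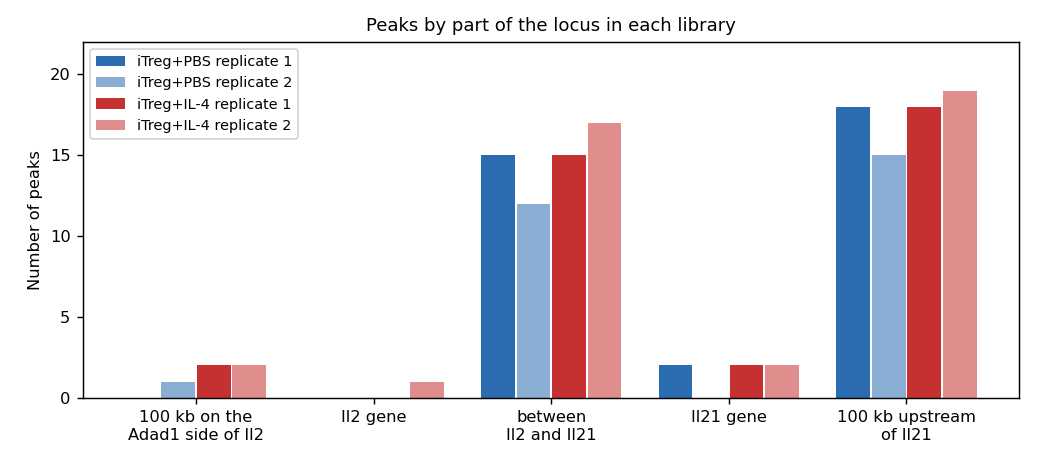
Number of peaks (y axis) in each library (bars) in the 100 kb on the Adad1 side of Il2, the Il2 gene, the stretch between the genes, the Il21 gene and the 100 kb upstream of Il21. Between the genes there were 15, 12, 15 and 17 peaks and upstream of Il21 18, 15, 18 and 19, in the order iTreg+PBS 1, iTreg+PBS 2, iTreg+IL-4 1 and iTreg+IL-4 2.

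Peaks present in the pair of iTreg+IL-4 lists and absent from the iTreg+PBS pair marked 2 of the 44 regions (4.55%), and 2.6% of regions over the genome had this pattern. Leaving out a library loosens this rule. The count was then 9 without iTreg+PBS replicate 1 and 2 without iTreg+PBS replicate 2. It was 6 without iTreg+IL-4 replicate 1 and 4 without iTreg+IL-4 replicate 2. Genome shares for these counts were not computed. The first of the 2 regions found with all libraries lay in an intron of Adad1, 9.62 kb after its start (chr3:37073275-37073533). It had a −log10 q of 18.6 and 18.0, heights of 35 and 30, and ranks of 55.3 and 55.6. Of its central 200 bases, 61% were marked as repeats in the genome sequence, and it was the sole region of the locus with more than 50% marked (2.27%, against 12.7% of all regions). The second lay 44.8 kb upstream of Il21 (chr3:37277179-37277624), with a −log10 q of 17.3 and 28.5, heights of 87 and 92, and ranks of 57.5 and 43.4. None of its central 200 bases were marked as repeats.

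The reverse pattern, with peaks in the pair of iTreg+PBS lists alone, marked a single region (2.27%), and 0.699% of regions over the genome had it. Without iTreg+PBS replicate 1, under the looser rule, there were 3 such regions, and the genome share for this was not computed. The one found with all libraries lay 38.8 kb upstream of Il21 (chr3:37271321-37271599), with a −log10 q of 30.1 and 23.7, heights of 93 and 55, and ranks of 45.6 and 38.4. A stretch of 5579 bases separated it from the region 44.8 kb upstream of Il21 that was called only with IL-4. Between them lay a weak region of iTreg+PBS replicate 2 alone and, 40.3 kb upstream of Il21, a region called in all libraries. That shared region ranked at 17.9 and 28.1 without IL-4 and at 15.6 and 19.7 with IL-4, where the conditions overlapped. Ranked among regions called in all libraries, it stood at 28.8 and 33.2 against 25.6 and 27.9, both iTreg+IL-4 libraries being above both others. When only the upper 50% of each list was kept, the region called only without IL-4 still had peaks in the iTreg+PBS pair alone. None of the regions called only with IL-4 kept its pattern there. With lists of equal length, or with peaks required to cover 50% of a region, all of these regions kept their patterns.

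Among the 24 regions called in all libraries, the ranks of the conditions overlapped in 17. Both iTreg+IL-4 libraries ranked above both iTreg+PBS libraries in 5 (20.8%), and 19.7% of the regions called in all libraries did so over the genome. The reverse held in 2 (8.33%), against 5.18% over the genome. Ranked by height, the counts were 6 (25%) and 2 (8.33%), against 20.4% and 4.42% over the genome. By −log10 q, iTreg+PBS replicate 2 had the weakest rank of the 4 libraries in 17 of the 24 regions, and the median difference of the locus was −3.69, beside −2.05 for all shared regions. When ranks were taken only among regions called in all libraries, the counts were 3 and 3 (12.5% each), against 14.3% and 12.7% over the genome, and iTreg+PBS replicate 2 was weakest in 7. The median difference was then −0.64 for the locus and 0.03 over the genome. The median rank of the shared regions per library was 29.2 and 37.3 for iTreg+PBS (33.2 ± 5.67) and 28.3 and 32.3 for iTreg+IL-4 (30.3 ± 2.83, SD, n = 2 each). The difference of −2.98 was smaller than the pooled SD of 4.48 (exact two-sided permutation test, p = 0.667). Over the same 24 regions it turned to 1.03 without iTreg+PBS replicate 2 (and was −0.38 over the 31 regions that the remaining libraries shared), and was −6.99 without iTreg+PBS replicate 1, −0.98 without iTreg+IL-4 replicate 1 and −4.98 without iTreg+IL-4 replicate 2. With ranks taken among shared regions it was 0.47.

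**Figure D4:**
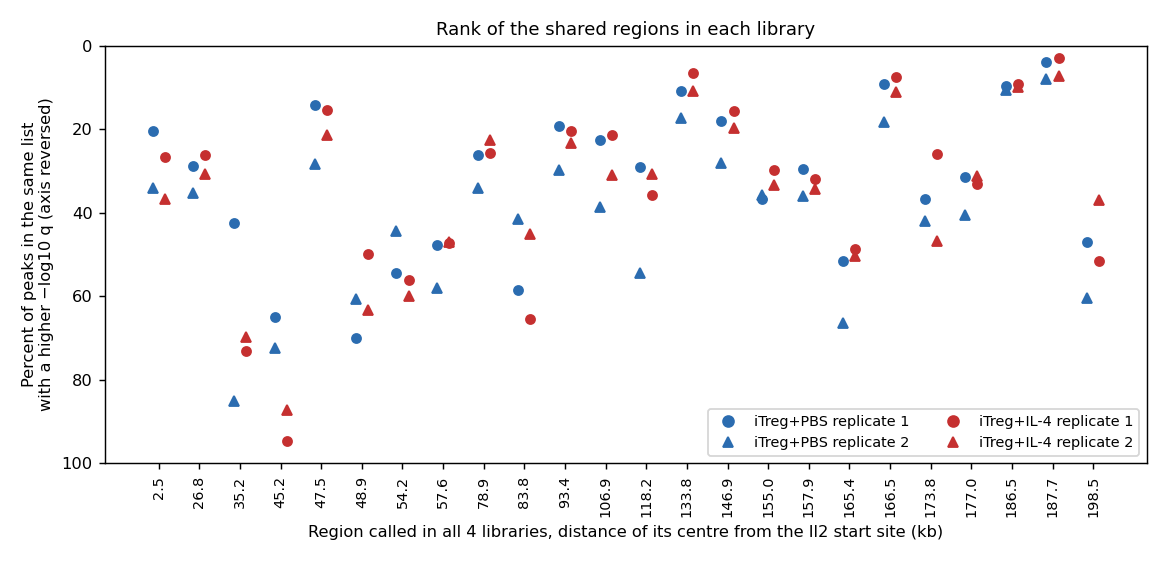
Rank of each of the 24 regions called in all libraries (x axis, distance of the centre from the Il2 start site in kb) as the percent of peaks in the same list with a higher −log10 q (y axis, reversed so that strong peaks are at the top). Circles and triangles are replicates 1 and 2, blue is iTreg+PBS and red iTreg+IL-4. The colours are mixed at most regions and separate most widely at 45.2 kb, where both iTreg+PBS libraries are higher.

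The largest difference in list rank was at the region 45.2 kb upstream of Il2 (chr3:37171019-37171291). Its −log10 q was 14.2 and 7.39 in iTreg+PBS replicates 1 and 2, and 3.25 and 5.40 in iTreg+IL-4 replicates 1 and 2, on heights of 56, 25, 32 and 31. The iTreg+PBS libraries ranked at 65.0 and 72.3, both above the iTreg+IL-4 libraries at 94.8 and 87.3. The difference was 22.4, with a pooled SD of 5.25, and was 18.6 to 26.1 when each library was left out in turn. Its sign could not turn in this way, since the conditions did not overlap. It was 11.2 when ranked by height and 13 when ranked among shared regions, with both iTreg+PBS libraries still above both others. This region was picked for its difference, so no test was made of it. It is the tandem repeat shown above, and the part of read mapping in this difference was not tested. The other region with both iTreg+PBS libraries on top, 54.2 kb upstream of Il2, ranked at 54.5 and 44.4 without IL-4 and at 56.2 and 60.0 with IL-4. Among shared regions its conditions overlapped, at 79.6 and 52.1 against 82.0 and 79.4, although its difference of 14.9 was then larger than that of the tandem repeat. Without iTreg+PBS replicate 2 that difference was 1.15, and the difference in list rank fell from 8.66 to 3.58. At the region 51.2 kb upstream of Il21 the list ranks overlapped. Among shared regions both iTreg+PBS libraries were above both others there, at 47.3 and 42.3 against 51.9 and 48.2.

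Over the genome, both iTreg+IL-4 libraries stood above both iTreg+PBS libraries in 19.7% of shared regions by the rank in the list. By the rank among shared regions it was 14.3%, and the share with both was not computed. In the locus, 2 regions had this order by both ranks. The first lay 27.1 kb upstream of Il21 (chr3:37259365-37260061), one of the 4 strongest of the locus, and had a −log10 q of 234 and 77.9 without IL-4, against 305 and 192 with it. The ranks were 10.8 and 17.3 without IL-4, against 6.59 and 10.8 with it, where iTreg+IL-4 replicate 2 stood above iTreg+PBS replicate 1 by less than 0.1 points. Ranked by height the conditions overlapped, at 10.7 and 18.6 against 7.01 and 11.9. The difference was −5.38 and ran from −8.61 to −2.15 when each library was left out in turn. The second lay 58.7 kb upstream of Il21 and ranked at 51.6 and 66.4 without IL-4 and at 48.7 and 50.3 with IL-4, a difference of −9.44 that was −2.04 without iTreg+PBS replicate 2. A region 48.3 kb upstream of Il21 ranked at 36.7 and 35.6 without IL-4 and at 29.8 and 33.3 with IL-4, where the conditions separated in the list and overlapped among shared regions.

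Motifs in the central 200 bases of the 44 regions were set beside those of the 93503 regions on the assembled chromosomes. GGAAA, a core that NFAT factors bind, was found in 31 regions of the locus (70.5%, against 47.6%), among them 15 of the 24 called in all libraries. GATA-type AGATAA was in 7 (15.9%, against 7.86%), Runx-type TGTGGT in 14 (31.8%, against 21.4%), AP-1 TGANTCA in 8 (18.2%, against 12.9%) and STAT-type TTCNNNGAA in 6 (13.6%, against 8.47%). The STAT6-type motif, with the spacing that the IL-4-activated factor STAT6 prefers, was in 2 (4.55%, against 5.84%): the region 27.1 kb upstream of Il21 and the one 8.45 kb upstream of Il2, which had a peak in iTreg+IL-4 replicate 2 alone. The octamer and CRE-type TGACGTCA were in none of the 44 regions, against 1.49% and 0.553%. Matches to the NFAT-type and STAT-type patterns can share bases, since GAA is part of each. The locus also had a lower GC content (median 44.5%, against 49.5%), and the part of base composition in these shares was not tested.

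Across the common gamma chain family, 16 of 20 genes had a promoter peak in all 4 libraries, compared with the 59.3% of coding genes given above. These were 3 of 6 ligand genes, 7 of 8 receptor genes and all 6 genes of the kinases and STATs. Il2 and Il9, a cytokine gene of Th9 cells, were the ligand genes with a peak in a single library, the latter in iTreg+PBS replicate 1. Il4, the Th2 cytokine gene, and Il9r, the IL-9 receptor gene, lacked a peak in iTreg+PBS replicate 2 alone. None of the 20 genes had a promoter peak in the iTreg+IL-4 pair alone or in the iTreg+PBS pair alone. Of coding genes, 0.333% had the first pattern, so its absence from 20 genes says little. The share with the second was not computed.

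The receptor genes for the cytokines of this locus had strong promoter peaks in each library. The promoter of Il2ra, the high-affinity chain of the IL-2 receptor, ranked at 6.14 and 8.82 without IL-4 and at 6.35 and 7.95 with IL-4. Il2rb, the signalling chain shared with IL-15, ranked at 3.0 and 7.95 without IL-4 and at 2.01 and 5.31 with it. Il21r, the IL-21 receptor, ranked at 18.0 and 21 without IL-4 and at 20.5 and 23.4 with IL-4. The ranks of Il2ra and Il2rb overlapped between the conditions, and those of Il21r did as well.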

How the data were processed

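Peak lists of 4 ATAC-seq libraries were analysed, with conditions and replicate numbers taken from the sample labels. Per the submitters' processing notes and the paper, the authors mapped paired reads to mm10 with Bowtie2 2.2.5, called peaks with MACS2 2.1.2 in each library without pooling replicates, and used bedtools 2.16.2. Duplicate removal, the correction for the transposase offset and the caller's parameters are not given in the sources used here, and their effect on positions and ranks was not tested. The deposited lists have no column names, and the values beside each peak were taken for the −log10 q-value (lowest 1.31) and for the height of the signal in overlapping fragments, both the authors' values and not scaled between libraries. The lists hold no reads, so depth is unknown and no counting interval was given.

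Lists were merged and ranked with Python 3.11.15 and numpy 2.4.6, and pysam 0.24.0 fetched sequences from GRCm38. Gene ends came from RefSeq, and transcripts and start sites from GENCODE M21. "Upstream" of the window was read by coordinates, since both cytokine genes are on the reverse strand. The window, the marker genes and the list of 20 common gamma chain genes were chosen with earlier results of these data known. The genes named are those annotated in the window and the 20 on that list. Values per library were compared by exact permutation tests over samples, where p measures the spread between pooled samples. The comparison of ranks at the Il2 promoter that had been laid down could not be made, since a single list had a peak there, and the number of libraries is given in its place. Counting of regions was tested on simulated data. Alternatives kept the upper 50% of each list or 56645 peaks of each, required peaks to cover 50% of a region, used flanks of 50 kb or promoters of 250 bases before to 50 after the start, ranked by height, left out each library or paired the replicate numbers. One further marker list is not reported here. Signal tracks and the other assays of the study were not analysed here.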

Additional observations from a re-analysis of the deposited data

How the results depend on the processing

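Of 70 results under alternatives, 56 kept their direction or stayed within the limits set for a change, 9 moved and 5 reversed. Some of the 56 could not change. Pairing the replicates leaves a difference of means as it is, and leaving out a library without an Il2 promoter peak leaves that count as it is. With the upper 50% of each list, the locus had 28 regions, 0 called only with IL-4 and 0 libraries with a peak at the Il2 promoter, which follows from removing the weaker peaks. With lists of equal length, 2 regions were called only without IL-4, the added one being the tandem repeat 45.2 kb upstream of Il2. Leaving out 1 library in turn gave 2 to 9 regions called only with IL-4, 1 to 3 called only without IL-4, and 0 to 1 libraries with a peak at the Il2 promoter. In each omission a single library stands for its condition. The highest counts, 9 and 3, came without iTreg+PBS replicate 1, and without iTreg+PBS replicate 2 they were 2 and 1. Genome shares for these counts were not computed. The same omissions gave a difference in bases inside peaks of −40.5 to 5921.5, in the rank of the Il21 promoter of −12.4 to 3.75 (0.42 without iTreg+IL-4 replicate 1) and in the number of peaks of 4 to 11. The median rank difference was −6.99 to −0.38 over the regions shared by the remaining libraries and −6.99 to 1.03 over the 24 regions called in all 4, the latter chosen after seeing the data. The median rank difference of the locus was 0.47 in place of −2.98 when ranks were taken among regions called in all libraries, an alternative also chosen after seeing the data, and the cause was not tested. The replicate block left the differences at 7.5 peaks, 2940.5 bases and −4.32 and −2.98 in rank, with 0.5 as the smallest p that 2 pairs allow. The labels do not say that the numbers pair the samples, and the differences between replicates 1 and 2 correlated between the conditions across 47767 regions (r = 0.452, across regions, which are not replicates). Unknown depth, 2 libraries per condition and the short list of iTreg+PBS replicate 2 limit each comparison.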
